A study of Mus musculus with 14 samples.

Results

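The 4 Hox clusters of the mouse were examined for open chromatin in hippocampal neuronal nuclei. Members were all regions of the deposited accessibility table that overlapped, by at least 1 base, a window drawn around HoxA, HoxB, HoxC or HoxD, which together hold 39 Hox genes. The rule used positions alone and no measured value. It found 13 regions of the 191271 in the table: 2 in the HoxA window, 11 in the HoxD window, and 0 in the HoxB and HoxC windows. The member regions are called HoxA-1 and HoxA-2 and HoxD-1 to HoxD-11 here, numbered by coordinate along their window, so the numbers are not those of genes.

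The assay was ATAC-seq, which uses a transposase to insert sequencing adapters into exposed DNA, on 14 libraries of 4 groups named Basal, Early, Late and Reactivated. All mice carried ArcCreERT2, a Cre recombinase that responds to tamoxifen and is driven by the neuronal activity gene Arc, and the R26R-STOP-floxed eYFP reporter, with genotype given as +/+. The labels give no age. All received 4-hydroxytamoxifen 1 h before contextual fear conditioning, and a foot shock on day 0. Nuclei from hippocampus of 10 to 12 pooled mice were stained for NeuN, Arc and GFP and sorted, with 10000 nuclei per condition. The labels do not state the gate of each group.

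Basal (n = 4) and Early (n = 3) carry the same treatment label, a foot shock with no recall and tissue collection on day 0, and the labels do not say what sets them apart. Late (n = 4) was collected on day 5 without recall. Reactivated (n = 3) had recall on day 5, with collection on day 5, 6 and 7 for replicates 1, 2 and 3. By these labels every group was conditioned. The study text states 3 biological replicates, and which mice went into which library is not given, so p-values measure only the spread between libraries, part of which may be technical. A library is a bulk sample, in which fewer nuclei with an open region and less opening per nucleus cannot be told apart.

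Hox genes encode homeodomain transcription factors that give body segments their identity along the head-to-tail axis, and within a cluster their order on the chromosome follows the order of their expression domains. The forebrain lies in front of the domains in which they are used. In forebrain neurons the clusters are known as long domains of the histone mark H3K27me3, laid down by Polycomb repressive complex 2 and bound by Polycomb repressive complex 1, which keep the genes silent. Neither that mark nor RNA was part of the data used here, so Polycomb silencing is background and was not measured.

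The RefSeq gene order (assembly GRCm38.p6) names the genes behind each window. HoxA holds 11 genes between Skap2 and Evx1, with the microRNA gene Mir196b among them. HoxB runs by rising coordinate from Hoxb13 to Hoxb1, 10 genes between Ttll6 and Skap1, with Mir196a-1 and Mir10a. HoxC runs from Hoxc13 to Hoxc4, 9 genes between Calcoco1 and Smug1, with Mir196a-2 and Mir615. HoxD runs from Hoxd13 to Hoxd1, 9 genes between Evx2 and Mtx2, with Mir10b. The region coordinates are on mm9, an older build for which no annotation was used here, so single regions are given by position and were not assigned to genes, exons or introns. Markers of neurons and of other cell types could not be looked up for the same reason, and the labelled cell type was not checked.

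CpG is the dinucleotide whose clusters (CpG islands) are known to recruit Polycomb complexes, and 4 promoters, 1 for each cluster, are printed as examples. RefSeq promoter sequences were found for 22 of the 39 genes, in 24 entries. The 250 bases before the start site are printed 5′ to 3′ on the gene's own strand, with each CG in capitals. Hoxa13, Hoxb4, Hoxc4 and Hoxd13 were chosen after their sequences were seen. Their positions on GRCm38.p6, which cannot be set beside the mm9 positions of the regions, are chr6:52260881-52261130 (minus strand), chr11:96318017-96318266 (plus), chr15:103034145-103034394 (plus) and chr2:74667975-74668224 (plus).
Hoxa13: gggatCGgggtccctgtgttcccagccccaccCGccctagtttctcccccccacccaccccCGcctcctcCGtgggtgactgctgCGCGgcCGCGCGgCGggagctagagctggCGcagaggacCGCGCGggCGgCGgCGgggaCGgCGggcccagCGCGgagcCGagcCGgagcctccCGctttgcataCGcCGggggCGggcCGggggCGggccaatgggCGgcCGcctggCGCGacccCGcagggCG
Hoxb4: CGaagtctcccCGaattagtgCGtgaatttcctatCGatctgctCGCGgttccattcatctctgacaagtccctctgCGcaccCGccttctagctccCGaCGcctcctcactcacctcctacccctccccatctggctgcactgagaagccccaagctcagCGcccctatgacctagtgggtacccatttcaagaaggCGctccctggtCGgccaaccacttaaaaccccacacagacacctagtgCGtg
Hoxc4: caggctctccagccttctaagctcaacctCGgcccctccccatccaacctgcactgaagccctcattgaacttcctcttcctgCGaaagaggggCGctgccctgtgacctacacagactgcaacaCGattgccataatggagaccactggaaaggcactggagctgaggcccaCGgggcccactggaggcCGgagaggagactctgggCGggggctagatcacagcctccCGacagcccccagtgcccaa
Hoxd13: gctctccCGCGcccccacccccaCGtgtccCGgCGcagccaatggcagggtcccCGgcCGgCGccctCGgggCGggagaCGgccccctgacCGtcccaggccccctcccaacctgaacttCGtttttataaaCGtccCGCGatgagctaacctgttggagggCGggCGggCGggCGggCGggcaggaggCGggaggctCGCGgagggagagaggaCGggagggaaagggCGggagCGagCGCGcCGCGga
Hoxa13 and Hoxd13, the last genes of their clusters in the head-to-tail order, hold 35 and 31 CG, with a GC content of 80% and 74.4%. Hoxb4 and Hoxc4, of the middle of the series, hold 14 and 8, with a GC content of 58% and 62%. As these 4 were chosen after being seen, they cannot show a trend with position, and none was tested. All Hox entries together ran from 2 to 35 CG. Hoxd11 had entries with 2 and 20 CG and Hoxa10 with 7 and 20, while Hoxa5 had 28 and Hoxd1 had 24. Over the 24 Hox entries the median was 12.5 CG per 250 bases, against 6 over all 32851 promoters of the table, of which 92.1% hold at least 1 CG (a motif that reads the same on both strands). The ratio of observed to expected CG was 0.875 for Hoxa13, 0.901 for Hoxd13, 0.760 for Hoxb4 and 0.340 for Hoxc4, which was thus below the median of all promoters (0.373). It was above 0.6 in 13 of 24 entries (54.2%) and in 34.0% of all promoters. These are descriptions of letters in a window, and they were not tied to any accessible region.

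No region of the table used here lay in the HoxB or HoxC window, and a region that this table does not list would not be seen. HoxB, chr11:96045000-96240000 (195 kb), lay in a stretch of 256.923 kb without a region. HoxC, chr15:102740000-102880000 (140 kb), lay in a stretch of 279.33 kb. The median distance between neighbouring regions on the autosomes was 6.568 kb, and 163 and 146 of 186597 such distances (0.0874% and 0.0782%) were at least as long as these. Both clusters, with their 10 and 9 genes, lay in gaps far longer than the usual spacing of regions. A gap that holds an empty window cannot be shorter than the window, so these lengths largely restate that the windows are empty. Tiles of the window's own width are given below. The read depth inside these stretches cannot be read from a list of regions.

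HoxA was sparse and HoxD was not. HoxA, chr6:52095000-52220000 (125 kb), held 1.60 regions per 100 kb with 0.858% of its bases in regions. HoxD, chr2:74495000-74615000 (120 kb), held 9.17 regions per 100 kb with 3.83% of its bases in regions. All 4 windows together (580 kb) held 2.24 regions per 100 kb, against 7.41 over the genome. The 3 sparse clusters therefore set the low total, while HoxD stood above the 7.77 per 100 kb of its own chromosome.

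Neighbouring sequence of the same width on either side gave 2.80 regions per 100 kb around HoxA, 3.08 around HoxB, 7.14 around HoxC and 2.92 around HoxD. At that width, HoxA and HoxB lay within surroundings with fewer regions than the genome's 7.41. With 500 kb on either side the densities were 5.90 around HoxA, 4.1 around HoxB, 8.9 around HoxC and 4.90 around HoxD. Those of HoxA and HoxB thus stayed below the genome's. HoxC was empty between surroundings near the genome's density, and HoxD was denser than its surroundings. Tiles of the window's own width were counted along each chromosome as a description. On chromosome 11, 4 of 608 tiles (0.658%) were as empty as HoxB, and on chromosome 15, 4 of 716 (0.559%) were as empty as HoxC. HoxA had as many regions as, or more than, 73 of 1172 tiles of chromosome 6 (6.23%), and HoxD as many as, or more than, 1001 of 1489 tiles of chromosome 2 (67.2%). The region list is common to all libraries, so these densities have no replicate spread and carry no test. Just outside the HoxA window, 0.56 kb past its right edge, stood the region chr6:52220560-52220774, whereas the nearest region outside the other windows was 26.852 kb away for HoxB, 40.813 kb for HoxC and 34.277 kb for HoxD.

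**Figure D1:**
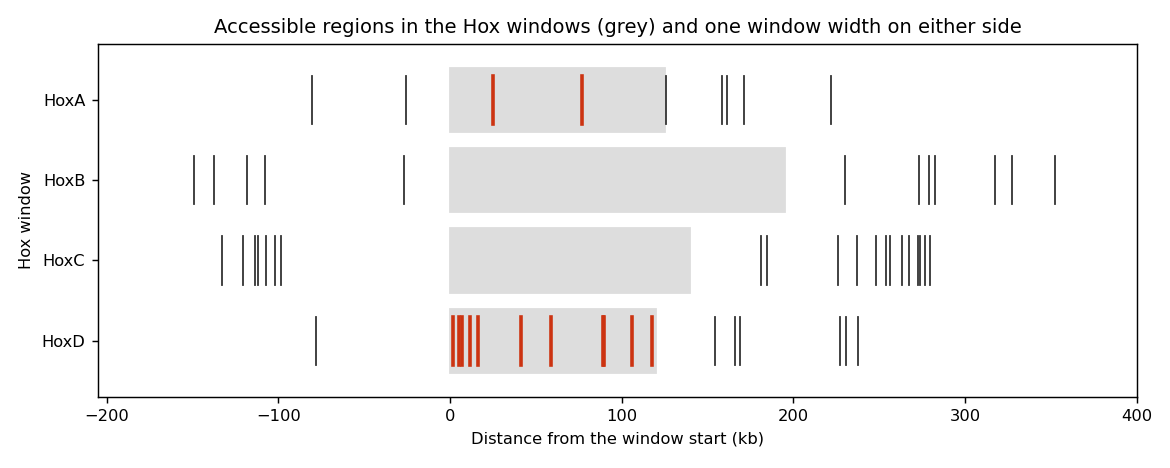
Positions of accessible regions in the HoxA, HoxB, HoxC and HoxD windows (red lines on grey bars) and in 1 window width on either side (black lines), against distance from the window start in kb. The HoxB and HoxC bars are empty, HoxA holds 2 regions and HoxD 11.

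Values are given in RPKM, the reads per kilobase that a region would have in a library of fixed size. Library totals were 46134253 to 56251676 reads, with all 4 Late libraries (46134253 to 47375212) below the other groups. Apart from Reactivated replicate 1 (56251676), the libraries of the other groups had nearly the same total, 54257222 to 54269492. Late libraries were also the most alike: the level of all regions had an SD of 0.0535 RPKM in Late, 0.222 in Basal, 0.586 in Early and 0.126 in Reactivated. Whatever set Late apart in this way cannot be told apart from the group in comparisons with Late. Of these reads 13.2% to 27.8% fell in regions. By group, the share ranged over 13.2% to 19.3% (Basal), 13.8% to 27.8% (Early), 18.4% to 20.02% (Late) and 21.3% to 24.0% (Reactivated). The members were 169 to 778 bases long (median 400, against 520 for all regions) and backed by 4 to 89 reads per library. By mean RPKM over all libraries they ranked from the 10.9 percentile of all regions (HoxD-8) to the 91.6 percentile (HoxD-3). In Basal the ranks ran from the 8.78 percentile (HoxD-11) to the 87.0 percentile (HoxD-5). No member stood at the floor of 1 read, and all 13 passed the filter on low values, which removed the lowest 10% by mean RPKM. HoxD-8 stood close to that cut. Its mean was 1.33 RPKM in Basal against 0.823 in Early, 0.564 in Late and 0.608 in Reactivated. It thus passed through its Basal values, and its fall from Basal is not independent of the filter. Without the filter its log2 fold change in Late against Basal was also -0.77 (limma adjusted p = 0.0283).

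Late against Basal compares groups collected on day 5 and on day 0. The groups also differ in read total, and may differ in whatever sets Basal apart, which the labels do not state. These cannot be told apart. Of the 13 Hox regions, 7 fell and 1 rose in Late (limma on log2(RPKM + 0.5), Benjamini-Hochberg adjusted p under 0.05 over 172143 regions). Over all regions tested, 6.03% were lower and 23.9% higher. The members' median log2 fold change was -0.61 and that of all regions 0.28, and 8 of 13 members were negative against 30.2% of all regions. Those that fell were HoxA-1 and HoxD-4, HoxD-5, HoxD-6, HoxD-8, HoxD-9 and HoxD-10, so that from HoxD-4 to HoxD-10 every region but HoxD-7 fell. Every Late library was below every Basal library in 5 of the 13 members, against 6.3% of all regions. These were HoxA-1, HoxD-4, HoxD-5, HoxD-8 and HoxD-9, all among the 7 that fell. Late was above Basal without overlap in HoxD-2 and HoxD-11, as in 29.6% of all regions.

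The region with the greatest fall was HoxD-9, chr2:74584583-74585023. It stood at 2.30, 1.42, 2.09 and 1.01 RPKM in Basal replicates 1 to 4, at 1.55, 0.880 and 0.838 in Early, at 0.343, 0.443, 0.768 and 0.484 in Late, and at 1.33, 0.880 and 0.796 in Reactivated. Late was low in all 4 libraries, below every library of the other 3 groups. The mean was 1.71 ± 0.60 RPKM (SD, n = 4) in Basal and 0.509 ± 0.182 (SD, n = 4) in Late, a log2 fold change of -1.10 (SE 0.23, limma adjusted p = 0.00177). Among all regions, that fold change was at the 0.751 percentile. By mean RPKM, HoxD-9 ranked at the 82.5 percentile of all regions in Basal and at the 4.33 percentile in Late.

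Its neighbour HoxD-8, chr2:74583817-74584205, ends 0.378 kb before HoxD-9 and was the lowest of the HoxD regions by mean log2 level. Values were 1.85, 0.902, 1.19 and 1.38 RPKM in Basal, 0.665, 0.285 and 1.52 in Early, 0.333, 0.559, 0.598 and 0.768 in Late, and 0.779, 0.380 and 0.665 in Reactivated. Late and Reactivated lay below all Basal libraries, and Early straddled them. Late fell by 0.77 on the log2 scale against Basal (SE 0.25, limma adjusted p = 0.0261). For Reactivated the same value was -0.72 (limma adjusted p = 0.0521), just outside the threshold.

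HoxD-4, chr2:74506296-74506965, was 1.82, 1.16, 1.35 and 1.46 RPKM in Basal, 0.689, 0.496 and 0.992 in Early, 0.773, 0.518, 0.599 and 0.573 in Late, and 0.638, 0.744 and 1.57 in Reactivated. Early and Late were below every Basal library, and 1 Reactivated library reached the Basal range. Late fell by 0.80 on the log2 scale (SE 0.21, limma adjusted p = 0.00856). Early had -0.68 (SE 0.23, limma adjusted p = 0.0537), which did not pass. This region ranked at the 72.9 percentile of all regions in Basal and at the 5.70 percentile in Late.

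In the HoxA window, HoxA-1 (chr6:52120043-52120338) was 1.25, 1.94, 1.44 and 1.56 RPKM in Basal, 1.94, 0.375 and 1.12 in Early, 0.730, 0.735, 0.501 and 0.577 in Late, and 1.08, 1.19 and 0.437 in Reactivated. Late and Reactivated lay below Basal without overlap, whereas Early ranged from below Late to the top of Basal. Late fell by 0.84 on the log2 scale (SE 0.25, limma adjusted p = 0.0168), while Reactivated had -0.58 (limma adjusted p = 0.105). HoxA-2 (chr6:52171363-52172141), the higher of the pair by mean log2 level and the widest member, was 2.11, 1.21, 0.876 and 1.33 RPKM in Basal, 0.829, 1.21 and 1.11 in Early, 1.33, 1.42, 1.68 and 1.09 in Late, and 1.74, 1.85 and 1.82 in Reactivated. The Basal range of HoxA-2 took in nearly all other libraries, and its log2 fold change in Late against Basal was 0.03 (limma adjusted p = 0.923).

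HoxD-5 (chr2:74511011-74511180), the narrowest member, was 2.07, 1.85, 2.18 and 1.42 RPKM in Basal, 1.31, 1.53 and 1.74 in Early, 0.510, 1.15, 0.999 and 1.26 in Late, and 1.58, 0.545 and 0.654 in Reactivated. Every Late library was below Basal, and Reactivated replicate 1 was within the Basal range. Late fell by 0.71 on the log2 scale (SE 0.24, limma adjusted p = 0.0286), and Reactivated fell by 0.80 (SE 0.26, limma adjusted p = 0.0257). The next along the cluster, HoxD-6 (chr2:74536107-74536731), was 1.33, 1.83, 1.06 and 1.51 RPKM in Basal, 1.03, 0.886 and 0.916 in Early, 0.759, 1.11, 0.575 and 0.614 in Late, and 0.969, 0.768 and 0.650 in Reactivated. Early and Reactivated lay below Basal without overlap, and 1 Late library reached the lowest Basal value. Late fell by 0.61 (SE 0.19, limma adjusted p = 0.0211), and Reactivated fell by 0.57 (SE 0.21, limma adjusted p = 0.0448).

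HoxD-10 (chr2:74600780-74601485), the widest region of the HoxD window, was 1.96, 1.52, 1.80 and 1.05 RPKM in Basal, 0.706, 1.12 and 1.41 in Early, 0.550, 0.430, 1.35 and 0.936 in Late, and 0.706, 1.18 and 1.15 in Reactivated. All 3 other groups were low on average and overlapped the lowest Basal library. Late fell by 0.69 on the log2 scale (SE 0.23, limma adjusted p = 0.0301).

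The region that rose was HoxD-11, chr2:74612509-74612712, the last of the window. It stood at 0.545, 0.545, 0.363 and 0.363 RPKM in Basal (4 to 6 reads per library), at 0.908, 5.27 and 1.45 in Early, at 2.23, 1.17, 2.08 and 1.57 in Late, and at 2.45, 2.81 and 2.63 in Reactivated. Every Basal library was below all 10 others, and Early replicate 2 was by far the highest. Late was 1.23 higher on the log2 scale (SE 0.30, limma adjusted p = 0.00528), with means of 0.454 ± 0.105 RPKM in Basal and 1.76 ± 0.483 in Late (SD, n = 4 each). Its rank among all regions went from the 8.78 percentile in Basal to the 73.3 percentile in Late. HoxD-11 starts 11.02 kb past the end of HoxD-10, which fell.

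The 5 remaining members did not pass in Late against Basal. HoxD-3 (chr2:74501723-74501915), the highest HoxD region by mean log2 level, was 2.40, 1.25, 0.768 and 1.25 RPKM in Basal, 0.960, 3.94 and 2.21 in Early, 2.24, 2.71, 1.87 and 3.66 in Late, and 4.07, 2.30 and 3.07 in Reactivated. Basal was mostly low and Reactivated mostly high, and Basal replicate 1 reached the Late and Reactivated ranges. Its log2 fold change in Late was 0.74 (limma adjusted p = 0.0707). HoxD-2 (chr2:74499802-74500281) was 1.23, 1.00, 0.769 and 0.692 RPKM in Basal, 0.385, 1.00 and 1.12 in Early, 1.62, 1.40, 1.50 and 1.55 in Late, and 1.30, 1.00 and 0.962 in Reactivated. Late was above every library of the other 3 groups, with a log2 fold change of 0.52 against Basal (SE 0.21, limma adjusted p = 0.0617).

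HoxD-7 (chr2:74553890-74554290) was 1.89, 1.47, 0.645 and 1.15 RPKM in Basal, 1.43, 2.44 and 1.20 in Early, 1.88, 2.33, 2.01 and 2.02 in Late, and 3.29, 1.80 and 1.52 in Reactivated. All groups overlapped, and Late against Basal was 0.56 (limma adjusted p = 0.0974). HoxD-1 (chr2:74496688-74497013) was 1.13, 0.964, 1.08 and 1.02 RPKM in Basal, 0.964, 0.510 and 0.340 in Early, 0.994, 0.734, 1.23 and 1.05 in Late, and 1.26, 0.737 and 2.15 in Reactivated. Basal lay within the range of Late, Early was low and Reactivated scattered. The first 3 regions of the HoxD window, HoxD-1 to HoxD-3, thus did not pass, and the next 3, HoxD-4 to HoxD-6, fell.

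**Figure D2:**
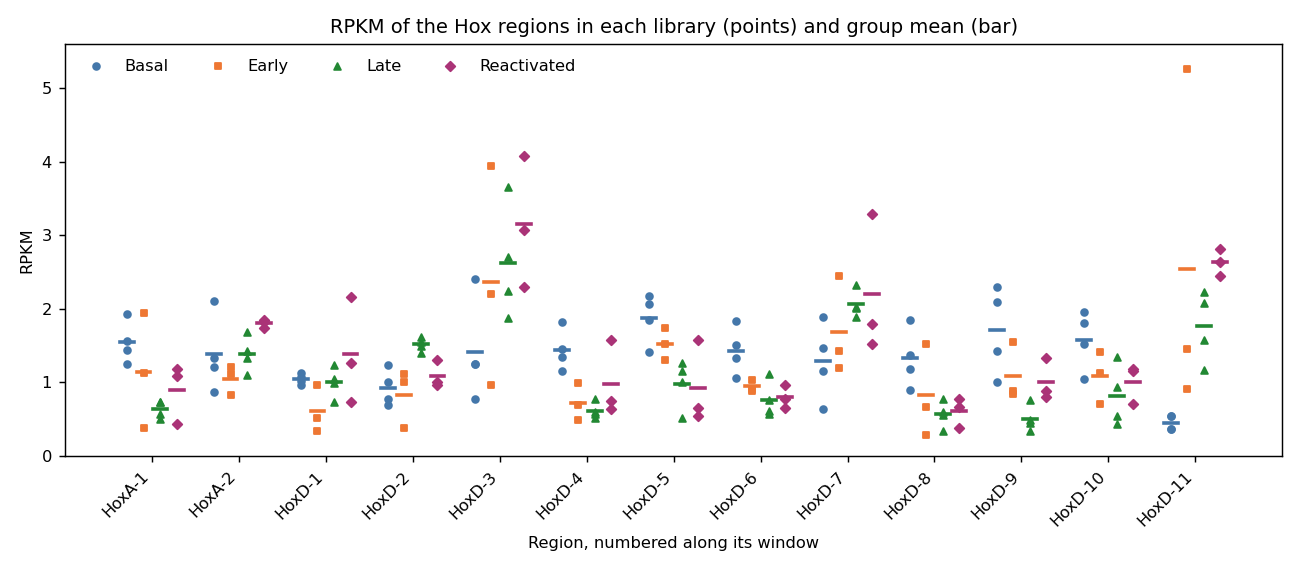
RPKM of the 13 Hox regions in each of the 14 libraries (points, by group) with group means (bars). Basal points lie above the Late points at HoxA-1, HoxD-4, HoxD-5, HoxD-8 and HoxD-9, and below all others at HoxD-11.

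Both the count and its split between higher and lower depended on single libraries. Without Basal replicate 1 the 8 calls were 4 higher (HoxD-2, HoxD-3, HoxD-7 and HoxD-11) and 4 lower (HoxA-1, HoxD-4, HoxD-6 and HoxD-9), and without Early replicate 1 or Early replicate 2 they were 3 higher and 7 lower. Without Basal replicate 2 they were 1 higher and 3 lower, and without Late replicate 1 or Late replicate 3 they were 1 higher and 4 lower. Fitted on the Basal and Late libraries alone, 4 were higher and 7 lower. The shares over all regions moved in these fits too. They were 24.2% higher and 4.77% lower without Basal replicate 1, and 17.1% and 4.46% without Basal replicate 2. Without Early replicate 1 they were 27.9% and 7.01%, and without Early replicate 2 they were 30.9% and 7.46%. Without Late replicate 1 they were 18.9% and 4.32%, and without Late replicate 3 they were 16.2% and 4.06%. On Basal and Late alone they were 32.9% and 8.12%.

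Early against Basal compares groups collected on the same day. One Hox region, HoxD-11, passed and was higher (1 of 13, against 10.9% of all regions higher), and 0 were lower (1.44% of all regions). An unadjusted limma p under 0.05 was found for 3 members and for 29.9% of all regions. The members' median log2 fold change was -0.40, against 0.23 for all regions. HoxD-11 had a log2 fold change of 1.40 (SE 0.32, limma adjusted p = 0.0117). Without Early replicate 2, the library with 5.27 RPKM and with the highest share of reads in regions, it was 0.80 (limma adjusted p = 0.0855). No member passed in that fit, in which 0.447% of all regions were higher and 0.265% lower. HoxD-4 and HoxD-6 were lower in every Early library than in every Basal library without passing. Over all regions 3.71% were lower and 15.7% higher without overlap, and of the members only HoxD-11 was higher in that way.

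Reactivated against Basal gave 2 Hox regions higher (24.3% of all regions) and 2 lower (4.78%). The members' median log2 fold change was -0.43 and that of all regions 0.39. HoxD-11 was 1.72 higher on the log2 scale (SE 0.32, limma adjusted p = 0.00277), with a mean of 2.63 ± 0.181 RPKM in Reactivated (SD, n = 3). HoxD-3 was 0.97 higher (SE 0.33, limma adjusted p = 0.0341), from 1.42 ± 0.694 (SD, n = 4) to 3.15 ± 0.888 RPKM (SD, n = 3). The regions that fell were HoxD-5 and HoxD-6, with the values given above. Groups did not overlap at HoxD-11, which was higher (34.9% of all regions), nor at HoxA-1, HoxD-6 and HoxD-8, which were lower (5.54% of all regions). Leaving out 1 library at a time gave 1 to 6 members past the threshold. There was 1 without Basal replicate 2 or Reactivated replicate 3. There were 2 without Basal replicate 3, Reactivated replicate 1 or Reactivated replicate 2. Over all regions, 14.1% were higher and 3.09% lower without Basal replicate 2, and 12.7% and 3.25% without Basal replicate 3. Without Reactivated replicates 1, 2 and 3 in turn, 14.3%, 18.4% and 9.23% were higher and 3.92%, 2.77% and 1.85% lower. The 6 came without Early replicate 2, with 34.7% of all regions higher and 6.02% lower.

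These 3 comparisons share the Basal libraries, so their fold changes are not independent. The share of reads in regions moved with the groups too, and with that share as a covariate 6 members passed in Late against Basal (1 higher, 5 lower), 1 in Early against Basal (higher) and 0 in Reactivated against Basal. In that fit the shares over all regions were 14.9% higher and 6.82% lower for Late, and 3.7% and 2.89% for Early. In Reactivated limma then called 0 of all regions and 2 members had an unadjusted p under 0.05, against 13.4% of all regions. Other scalings move the whole table. Median-of-ratios scaling shifted the median of all regions from 0.28 to -0.01 in Late against Basal and from 0.39 to 0.03 in Reactivated against Basal. With that scaling 1 member was higher and 7 lower in Late, as before, and 1 higher and 6 lower in Reactivated in place of 2 and 2. Of all regions, 14.3% were then higher and 16.5% lower in Late, and 8.81% and 10.8% in Reactivated.

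**Figure D3:**
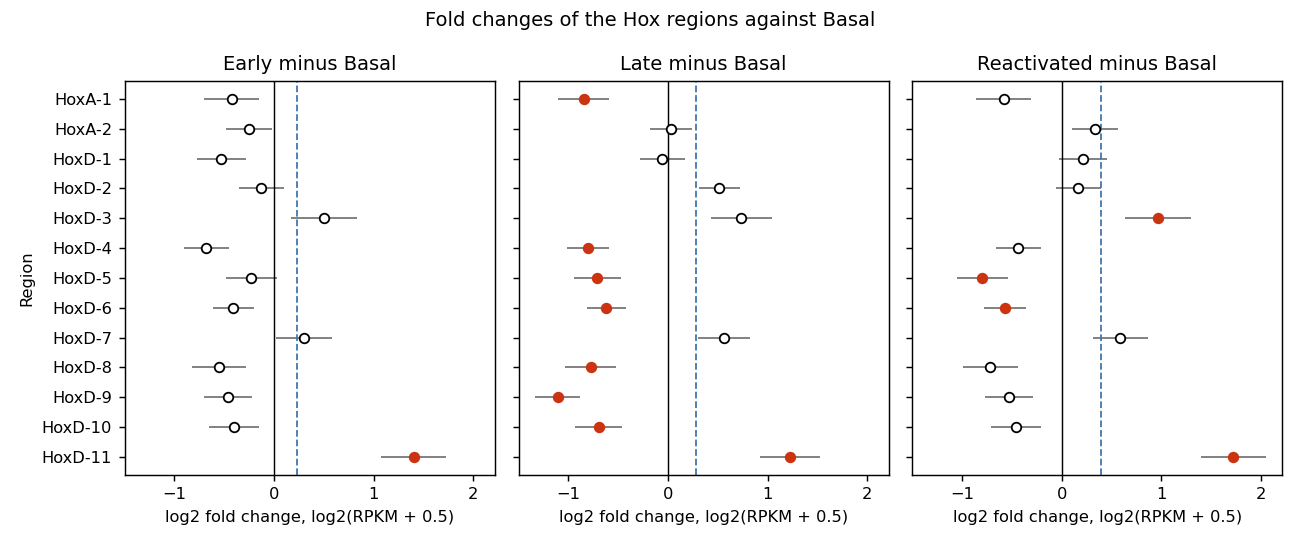
Log2 fold changes of the 13 Hox regions for Early, Late and Reactivated against Basal, with standard errors and, as a dashed line, the median of all regions. HoxD-11 lies at 1.40, 1.23 and 1.72, right of the dashed line in all 3 panels, and HoxD-9 reaches -1.10 in Late.

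Among the other 3 groups the Hox regions were not separated by the test. Reactivated and Late differ in recall, in read total and, for Reactivated replicates 2 and 3, in collection day, which cannot be told apart. Between them limma called 0 of 13 (0.0256% of all regions were higher and 0.205% lower). Of the members, 1 had an unadjusted p under 0.05, against 11.3% of all regions. The largest difference was at HoxD-9, where all 3 Reactivated libraries were above all 4 Late libraries (log2 fold change 0.57, SE 0.24, adjusted p = 0.382). Late against Early called 0 (0.31% higher and 0.103% lower), with 2 at an unadjusted p under 0.05 (12.8% of all regions). The largest difference there was at HoxD-2 (0.65, SE 0.22, limma adjusted p = 0.209). Reactivated against Early called 0 (0.944% higher and 0.417% lower), with 3 at an unadjusted p under 0.05 (19.5% of all regions). The largest difference there was at HoxD-1 (0.74, SE 0.26, limma adjusted p = 0.123). Without Early replicate 2, HoxD-11 passed there with 0.92 (limma adjusted p = 0.0203), in a fit with 14.5% of all regions higher and 2.83% lower.

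Some members kept these groups apart without passing. Reactivated was above Late without overlap in 3 members, HoxA-2, HoxD-9 and HoxD-11, and below it in 1, HoxD-2, against 13.5% and 5.03% of all regions. Late was above Early without overlap at HoxD-2 and below it at HoxD-5 and HoxD-9, against 5.21% and 4.6% of all regions. Reactivated was above Early without overlap at HoxA-2 and below it in 0 members, against 10.6% and 6.28% of all regions.

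As whole clusters, HoxA and HoxD had a Basal level that overlapped other groups on the deposited scale, and the order of the groups changed with the scale. The level of a cluster is its reads over the summed length of its regions, in RPKM. For HoxD it was 1.35 ± 0.237 in Basal, 1.12 ± 0.186 in Early, 1.05 ± 0.0750 in Late and 1.24 ± 0.159 in Reactivated (SD, n = 4, 3, 4 and 3). The order from high to low was Basal, Reactivated, Early and Late, and neighbours in that order differed by less than their spread. As an unweighted mean over regions, Reactivated came first with 1.43 ± 0.238, before Basal with 1.32 ± 0.251. Divided by the level of all regions in the same library, HoxD had values from 0.874 to 1.17 in the Basal libraries. The Early libraries ran from 0.562 to 0.807, those of Late from 0.636 to 0.702, and those of Reactivated from 0.610 to 0.697. All 4 Basal libraries were then above the other 10, and the 3 other groups overlapped each other.

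For HoxA the level was 1.43 ± 0.345 RPKM in Basal, 1.08 ± 0.0847 in Early, 1.18 ± 0.170 in Late and 1.56 ± 0.112 in Reactivated. All 3 Reactivated libraries (1.44 to 1.67) were above every Early and Late library (0.952 to 1.36), and Basal (1.03 to 1.87) overlapped them. As an unweighted mean of the pair of regions, Basal came first with 1.46 ± 0.226, before Reactivated with 1.35 ± 0.20. Divided by all regions it became 1.10 ± 0.119 in Basal, 0.727 ± 0.286 in Early, 0.749 ± 0.0981 in Late and 0.828 ± 0.113 in Reactivated, so the order changed and Basal came first. These levels have no test, since they sum over members.

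**Figure D4:**
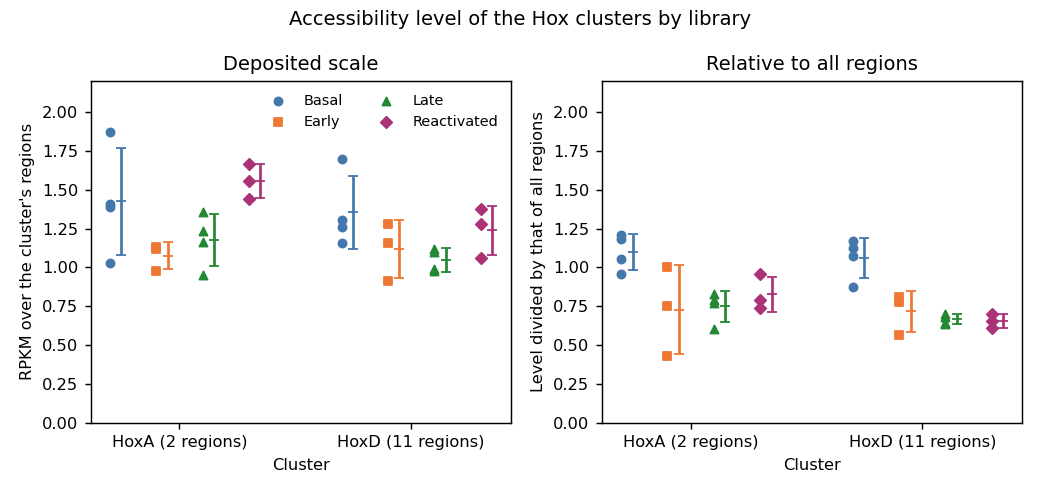
Level of the HoxA and HoxD regions in each library (points) with group mean and SD (bars), as deposited in RPKM (left) and divided by the level of all regions of the library (right). On the right, the 4 Basal points of HoxD lie at 0.874 to 1.17, above the other 10 libraries.

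The regions around the windows that passed against Basal were all higher, as were most regions that passed over the whole table. Of 46 regions within 1 window width on either side, 40 passed the filter. In Late against Basal 11 of these were higher and 0 lower, with a median log2 fold change of 0.29. Over all regions 23.9% were higher and 6.03% lower. Of the 40, 11 lie around HoxB and 17 around HoxC, which hold no member. Around HoxD 6 were tested, of which 1 was higher, with a median of 0.14 and 3 negative, and around HoxA 3 of 6 were higher, with a median of 0.73. In Reactivated against Basal 10 of the 40 were higher and 0 lower (median 0.56), and over all regions 24.3% were higher and 4.78% lower. In Early against Basal 2 of the 40 were higher and 0 lower (median 0.15), and over all regions 10.9% were higher and 1.44% lower. The difference between members and surroundings was not tested.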

How the data were processed

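The authors deposited 1 table of RPKM values for 191271 regions and 14 libraries; the submitters' processing notes name Bowtie2 2.0, SAMtools, MACS2, DiffBind, DESeq2 and mm9 without role or order. How regions were called, and any removal of duplicates or shift of cut positions: not given in the sources used here. RPKM times length gave whole reads in 100% of values (tolerance 0.01), with a lowest value of 1 read, so regions without reads may be listed at 1. A count model was not used.

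The table was tested as log2(RPKM + 0.5), which understates changes of low regions, after leaving out the 10% with the lowest mean RPKM (172143 left). All 14 libraries entered 1 fit with group means in limma 3.58.1 (R 4.3.3, trend, robust). Tests were 2-sided, with Benjamini-Hochberg adjustment over all regions and a threshold of 0.05. Python 3.11.15 and pandas 2.3.3 did the rest. The test was checked on simulated reads; an assumed dispersion first missed the pass mark, and one estimated from the data replaced it.

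Members and lists were chosen with earlier results of these data known. Named were the highest, lowest and widest region per cluster, those past the threshold, and otherwise the largest difference per comparison; the remaining members, gaps, tiles and promoters were added after their values were seen. Gene lists and cell type markers need mm9 gene positions and were not run. Alternatives covered pseudocount, filter, scaling, covariate, replicate block and leaving out each library. Reads per region (4 to 89 in members) limit precision, and counting error is the least error each value has.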

Additional observations from a re-analysis of the deposited data

How the results depend on the processing

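No alternative turned the direction of a single region that had passed, but some turned the sign of the members' median. Of 395 values of single regions under an alternative, 337 stayed on their side of the threshold and 58 lost the call. The 395 include HoxD-9 in Reactivated against Late (25 values), HoxD-2 in Late against Early (25) and HoxD-1 in Reactivated against Early (24). None of those had passed in that comparison, so they are among the 337 and had no call to lose. The members called in Early against Basal (1) became 2 under median-of-ratios scaling and under quantile normalization. Of all regions, 8.07% were higher and 6.89% lower under median-of-ratios scaling, and 6.52% and 5.62% under quantile normalization. The count was 0 to 4 when 1 library was left out. The 0 came without Early replicate 2 (0.447% of all regions higher, 0.265% lower) and the 4 without Early replicate 1 (24.8% and 1.89%). In Late against Basal 8 became 5 with the lowest 25% of regions left out, which tests 9 members, and 0 with Late averaged to 1 sample, a fit in which 0 of all regions passed and the members' median was -0.60 and HoxD-9 -1.09. With the lowest 25% left out, 23.6% of all regions were higher and 6.17% lower. The count was 4 to 10 when 1 library was left out. The 4 came without Basal replicate 2, with 17.1% of all regions higher and 4.46% lower. The 10 came without Early replicate 1 (27.9% and 7.01%) or Early replicate 2 (30.9% and 7.46%). In Reactivated against Basal 4 became 7 under median-of-ratios scaling and under quantile normalization, and 0 with the share covariate. Of all regions, 8.81% were higher and 10.8% lower under median-of-ratios scaling, and 7.97% and 8.55% under quantile normalization. With the covariate 0 of all regions passed. Leaving out 1 library gave 1 to 6, with the shares of these extremes given above. In Reactivated against Early 0 became 0 to 1 when 1 library was left out. The 1 came without Early replicate 2, with 14.5% of all regions higher and 2.83% lower.

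The members' median in Late against Basal (-0.61) was 0.0315 with the lowest 25% left out, -0.89 under median-of-ratios scaling and -0.94 under quantile normalization. In Reactivated against Basal (-0.43) it was 0.17, -0.78 and -0.73 under the same settings and -0.16 with the covariate. Dropping the lowest 25% removes 4 members, HoxD-1, HoxD-4, HoxD-6 and HoxD-8, and all of these but HoxD-1 had fallen in Late against Basal. In Late against Early the median turned from -0.18 to 0.03 without Early replicate 3. HoxD-3 in Reactivated against Basal lost its call in 9 of 25 alternatives and HoxD-6 in 14 of 24.

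Divided by all regions, HoxA was at 0.727 in Early, 0.749 in Late and 0.828 in Reactivated, and HoxD at 1.06, 0.717, 0.667 and 0.654 in Basal, Early, Late and Reactivated. As an unweighted mean, HoxA was at 1.35 in Reactivated, and HoxD at 1.20 in Late and 1.43 in Reactivated. Under median-of-ratios scaling HoxA was at 1.32 in Reactivated, and HoxD at 1.61 in Basal, 0.948 in Late and 1.04 in Reactivated. Flanks of 500 kb gave 5.90 regions per 100 kb around HoxA and 4.90 around HoxD.

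Libraries with the same replicate number did not deviate together (correlations -0.26 to 0.07 over 19 pairs, against -0.15 to 0.20 for different numbers), so the numbers do not pair the samples. With the replicate number as a block, the counts were 1, 8 and 3 against Basal in Early, Late and Reactivated. The member medians were -0.42, -0.61 and -0.44. Of all regions in that fit, 6.09%, 20.8% and 17.2% were higher and 0.688%, 5.37% and 3.65% lower. With few reads per region, small changes were not detectable at this depth.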
